A study of Mus musculus with 2 samples.

Results

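N6-methyladenosine (m6A) is the most common internal modification of messenger RNA. Here the transcripts of 10 genes that write, read or erase it were followed in mouse embryonic stem cells. The genes were chosen by name from the 50508 genes of the table, and all 10 were found: the writer complex genes Mettl3, Mettl14, Wtap, Zc3h13 and Rbm15, the reader genes Ythdf1, Ythdf2, Ythdf3 and Ythdc1, and the eraser gene Alkbh5. RNA sequencing was done on E14 cells, a stem cell line of the 129/Ola strain at passages 15 to 18, grown without feeders on gelatin in medium with 15% serum and leukemia inhibitory factor at 1000 U/ml. One culture condition was transfection with an siRNA against Mettl8 and the other was transfection with a scramble siRNA, both harvested after 72 h. There was 1 library for each, although the series record speaks of triplicates, and no label says whether a library pools several cultures.

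The writer complex places the mark in the nucleus while a transcript is being made. METTL3 carries the catalytic site, METTL14 holds the RNA beside it, and WTAP, ZC3H13 and RBM15 belong to the regulatory part that keeps the complex in the nucleus and brings it to RNA. YTH domain proteins bind the marked adenosine and pass the transcript on to splicing and export in the nucleus, or to translation and decay in the cytoplasm. In mouse embryonic stem cells the mark is known for shortening the life of pluripotency transcripts, so that cells without METTL3 or METTL14 leave the naive state poorly.

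Mettl8, the gene named by the siRNA, went against its label. It stood at 100.3 FPKM in the library labelled Mettl8 siRNA and at 0.67 FPKM in the library labelled scramble siRNA, a ratio of 150 with a 95% counting interval of 123 to 182. FPKM is a read count scaled to the length of the gene and to the depth of the library. All ratios have the library labelled Mettl8 siRNA on top and that labelled scramble siRNA beneath, and "higher" and "lower" are meant the same way. Protein was not measured, so these values do not say which cells had less METTL8 protein. Whether the labels or the columns were exchanged was not tested, and an exchange would reverse every direction given here. The genes of the table held 21419279 and 22213653 rebuilt reads in these libraries. Of 9 stem cell markers 9 had a mean of at least 1 FPKM, with sums of 1308 and 1345 FPKM. Of these, 1 was higher and 8 lower, also with equal FPKM sums over protein-coding genes or with the median ratio of all genes set to 1. With equal FPKM sums over all genes, 6 were higher and 3 lower. The counting interval lay above 1 for 1 marker and below 1 for 6. The shares of all genes with a mean of at least 1 FPKM were 11.6% and 7.85%, and deeply sequenced genes leave out 1 more readily. The 6 primitive endoderm, 5 trophoblast and 4 mesoderm markers summed to at most 1.30 FPKM per list in either library. Among the 10 fibroblast markers, which summed to 31.4 and 36.9 FPKM, Fn1 (29.2 and 34.4 FPKM) and Tagln (1.03 and 1.18 FPKM) reached a mean of 1, and Col3a1 and Lum were at 0.01 FPKM in the first library and listed at 0 in the second. The interval of Fn1 lay below 1 (ratio 0.849, 0.827 to 0.873). Those of Pdgfrb (0.27 and 0.42 FPKM, 41 and 65 reads) and Acta2 (0.02 and 0.16 FPKM, 1 and 8 reads) did too. The intervals of the remaining fibroblast markers contained 1. Of the 4 neural markers, which summed to 20.6 and 20.2 FPKM, Tubb3 was at 17.9 FPKM in both, Pax6 and Nes were at most 1.27 FPKM, and Sox1 at most 0.19 FPKM. In a bulk library, a difference in the number of cells of a type and a difference in RNA per cell cannot be told apart.

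The YTHDF genes encode 3 closely related proteins, so their sequences are shown first. Reads are most easily shared between genes where the letters are the same. The coding sequences of Ythdf1 and Ythdf2 were identical at 70.4% of aligned bases, those of Ythdf1 and Ythdf3 at 71.1% and those of Ythdf2 and Ythdf3 at 71.5%. The longest identical run was 22 bases between Ythdf1 and Ythdf2, 17 bases in either pair with Ythdf3, and 15 bases for all 3 together. These 15 bases lie in the following coding stretches of 60 bases (GENCODE M21 transcripts, GRCm38), in which capitals mark the 25 positions where the genes differ.
Ythdf1: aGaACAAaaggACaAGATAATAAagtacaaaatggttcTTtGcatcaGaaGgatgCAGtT
Ythdf2: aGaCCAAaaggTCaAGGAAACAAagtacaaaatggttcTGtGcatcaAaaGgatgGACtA
Ythdf3: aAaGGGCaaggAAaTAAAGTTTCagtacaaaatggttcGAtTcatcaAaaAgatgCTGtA
In this stretch Ythdf2 differed from Ythdf1 at 10 positions and Ythdf3 from Ythdf1 at 20. The read length is not given in the sources used here. With windows of 50 bases, 0 of the 3313 windows of Ythdf1 and 0 of the 5457 windows of Ythdf3 occurred in a transcript of any other gene. Only exact matches to annotated transcripts were counted, so sharing with mismatches was not measured.

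Other members shared more of their sequence. Mettl3 shared 18.4% of its 50-base windows with other genes, chiefly with Tox4, a gene on the opposite strand whose exons cover 933 bases (18.4%) of the exons of Mettl3. The strand setting of the counting is not given, so reads from this overlap cannot be assigned to either gene with certainty. Ythdf2 shared 7.49% of its windows, with 2 processed pseudogenes on chromosome X, Gm6823 and Gm8401, which both were listed at 0 FPKM in both libraries. Wtap shared 6.36%, most of it with the processed pseudogene Gm14292 on chromosome 2, which stood at 10.5 FPKM (133 reads) in the library labelled Mettl8 siRNA and 10.3 FPKM (134 reads) in that labelled scramble siRNA. Reads of the shared windows cannot be assigned to either gene with certainty, and Wtap itself had 2639 and 2411 reads. Ythdc1 shared 5.87%, mostly with the overlapping long noncoding RNA gene Gm43055 (7.40 and 6.95 FPKM), and Mettl14, Zc3h13 and Rbm15 shared 0 windows.

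The letters GGACU, written GGACT in DNA, are the best known context of m6A. The last copy inside the coding sequence is shown, with the motif in capitals, for the catalytic subunit, its main regulatory partner and 2 related readers.
Mettl3: accagggcctGGACTgcgatgtgat
Wtap: agaatggcttGGACTcaaatgtaaa
Ythdf1: agtcccctgtGGACTacggcaccag
Ythdf2: aatctgctgtGGACTacaacacatg
These motifs lie 242, 29, 305 and 302 bases before the end of the coding sequence. Searched on the transcript strand, Ythdc1 held 0 copies in its principal transcript of 2960 bases, which begins at the start codon. Its longest transcript, of 6313 bases, was not searched. Alkbh5 held 10 copies in 5730 bases. The median of the 10 genes was 1.12 per kilobase, against 1.04 for 10047 protein-coding genes with a mean of at least 1 FPKM. In the coding sequence alone the order was the other way, 0.941 against 1.02 per kilobase. Within 200 bases of the stop codon on either side, 5 of the 10 genes held a copy, against 39.4% of those 10047. No methylation was measured, so a match describes letters only.

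Promoters were matched by symbol in RefSeq (GRCm38.p6) for 8 of the 10 genes. The 250 bases before the start site are shown for the gene with the highest level, Ythdf1, and for the catalytic subunit gene, Mettl3. Capitals mark matches, on either strand, to the GC box GGGCGG, to the box of nuclear factor Y with the letters CCAAT, to the core of a cyclic AMP response element, TGACGT, to the E box CACGTG, or to the ETS site CCGGAAG.
Ythdf1, chr2:180920937-180921186, minus strand: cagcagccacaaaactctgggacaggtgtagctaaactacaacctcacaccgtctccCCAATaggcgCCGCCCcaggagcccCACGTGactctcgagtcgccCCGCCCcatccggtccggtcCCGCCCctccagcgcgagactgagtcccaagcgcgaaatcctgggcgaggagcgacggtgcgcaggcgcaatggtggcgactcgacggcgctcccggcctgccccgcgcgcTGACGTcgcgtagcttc
Mettl3, chr14:52305125-52305374, minus strand: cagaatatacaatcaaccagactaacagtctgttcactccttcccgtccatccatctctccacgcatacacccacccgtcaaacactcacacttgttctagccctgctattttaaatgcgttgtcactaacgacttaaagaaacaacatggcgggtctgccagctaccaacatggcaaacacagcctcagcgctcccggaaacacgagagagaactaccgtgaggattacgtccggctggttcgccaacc
The Ythdf1 stretch held 3 GC boxes and 30 CG dinucleotides, and the Mettl3 stretch held 0 matches and 13 CG dinucleotides, against a median of 6 CG dinucleotides over 32851 mouse promoters. A GC box lay in the first listed promoter of 6 of the 8 genes and in 32.7% of all promoters, and CCAAT in 4 of the 8 and in 33.8%. TGACGT lay in 2 of the 8 and in 6.47%, CCGGAAG in 1 and in 6.91%, and CACGTG in 1 and in 6.02%. The 32851 promoters were not limited to genes with a mean of at least 1 FPKM, unlike the background used for GGACT. A gene can have several promoters among them.

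All 10 genes were transcribed in both libraries, over a range of about 1 to 23 FPKM. The same order held in both: Ythdf1 was highest, followed by Alkbh5, Ythdf2, Wtap, Rbm15, Ythdf3, Mettl3, Ythdc1, Mettl14 and Zc3h13. Exact Poisson intervals of neighbours in this order did not overlap for 16 neighbour pairs over both libraries. The 2 exceptions were Ythdf2 and Wtap in the library labelled Mettl8 siRNA (17.5 and 16.8 FPKM), and Ythdc1 and Mettl14 in that labelled scramble siRNA (3.02 and 2.64 FPKM). The 10 genes summed to 113 FPKM in the library labelled Mettl8 siRNA and to 110 FPKM in that labelled scramble siRNA. With 1 library per group, all intervals cover counting error only, reads are not independent molecules, and no test between the groups was possible.

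**Figure D1:**
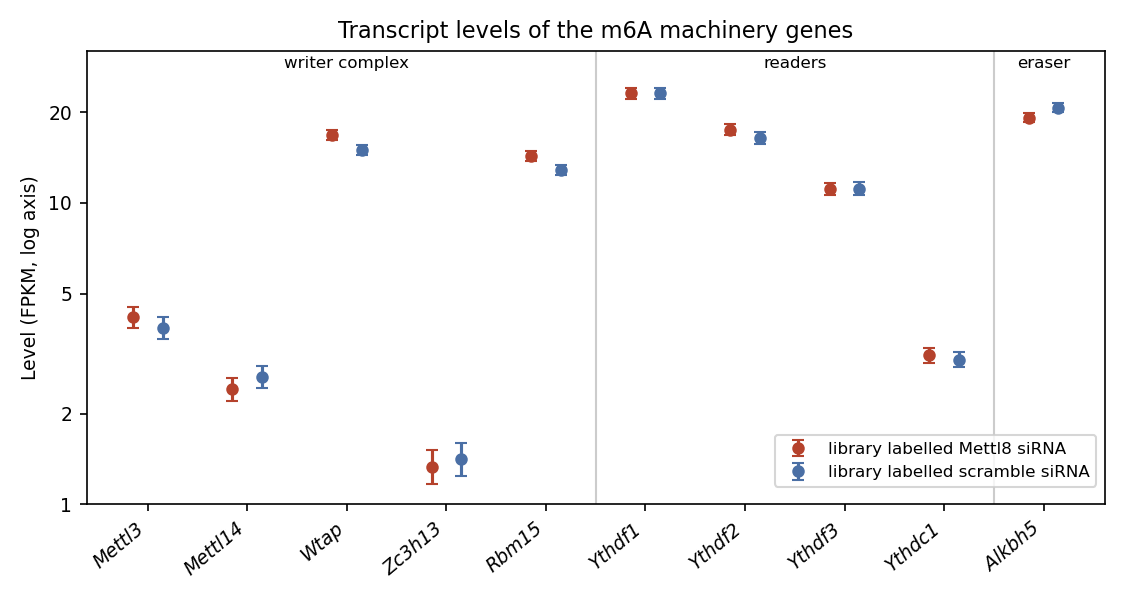
Level of each gene in FPKM (log axis) in the library labelled Mettl8 siRNA (red, left) and the library labelled scramble siRNA (blue, right). Points are single libraries and bars exact 95% Poisson intervals. Ythdf1, at 23.2 and 23.1 FPKM, is highest and Zc3h13, at 1.33 and 1.41 FPKM, lowest in both.

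The catalytic pair of the writer complex stood at 4.18 FPKM or less by deposited gene length, with ratios on opposite sides of 1. This level depends on the gene length used, as given below. Mettl3 (chromosome 14, 52294841 to 52305128, minus strand, GRCm38) was at 4.18 FPKM (3.85 to 4.52, 610 reads) in the library labelled Mettl8 siRNA and at 3.84 FPKM (3.53 to 4.17, 574 reads) in the library labelled scramble siRNA. Its ratio was 1.09, with a counting interval of 0.969 to 1.22. Mettl14, which encodes the RNA-binding partner of METTL3 (chromosome 3, 123368297 to 123386108, minus strand), was at 2.41 FPKM (2.20 to 2.63, 497 reads) and at 2.64 FPKM (2.42 to 2.87, 557 reads) in the same libraries. Its ratio was 0.913 (0.807 to 1.03). Both intervals contain 1, so neither gene was distinguishable between the libraries at this depth with the values as deposited. With equal FPKM sums over all genes the interval of Mettl3 lay above 1.

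The balance between these partners can be read without regard to library scaling. Mettl14 was at 0.577 of the level of Mettl3 (0.511 to 0.650) in the library labelled Mettl8 siRNA and at 0.688 (0.610 to 0.773) in the library labelled scramble siRNA. The quotient of these ratios was 0.840, with an exact conditional interval of 0.709 to 0.995, which ends just below 1. In all, 11 such pairs of members were compared, without adjustment for their number. For 2 of the 11 the interval left out 1, the other being Alkbh5 over Mettl3 (4.59 and 5.39, quotient 0.852, 0.752 to 0.966). Both pairs contain Mettl3, whose reads may be shared with Tox4 (9.45 and 9.35 FPKM), and the part of that overlap in the ratios was not tested.

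Of the regulatory subunits, Wtap and Rbm15 were more abundant than the catalytic pair, by a factor that depends on the gene length used, and were slightly higher in the library labelled Mettl8 siRNA. Wtap (chromosome 17, 12966796 to 12994169, minus strand), the adaptor that joins the catalytic pair to the other subunits, was at 16.8 FPKM (16.2 to 17.4) there and at 15.0 FPKM (14.4 to 15.6) in the library labelled scramble siRNA. The ratio was 1.12 (1.06 to 1.18). Rbm15 (chromosome 3, 107325421 to 107333673, minus strand), which encodes an RNA-binding protein that brings the complex to uridine-rich sites and to Xist, was at 14.3 FPKM (13.8 to 14.8) and 12.8 FPKM (12.3 to 13.3) in the same libraries. Its ratio was 1.12 (1.06 to 1.18). For both genes the interval of the ratio lies above 1, at sizes of about 12%.

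Zc3h13, the subunit known to hold the complex in the nucleus of mouse stem cells (chromosome 14, 75284373 to 75344426, plus strand), was the least abundant of the 10. It was at 1.33 FPKM (1.17 to 1.52, 228 reads) in the library labelled Mettl8 siRNA and at 1.41 FPKM (1.24 to 1.60, 247 reads) in the library labelled scramble siRNA. The ratio of 0.943 (0.785 to 1.14) left a difference undetectable at this depth. Within the summed level of the 5 writer genes, 39.0 and 35.7 FPKM, Wtap took 43.0% and 42.0% and Rbm15 36.7% and 35.9%. Mettl3 took 10.7% and 10.8%, Mettl14 6.18% and 7.39%, and Zc3h13 3.41% and 3.95%.

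The cytoplasmic readers were abundant and close between the libraries. Ythdf1, known for promoting translation (chromosome 2, 180904377 to 180920949, minus strand), was at 23.2 FPKM (22.2 to 24.2) in the library labelled Mettl8 siRNA and at 23.1 FPKM (22.1 to 24.1) in the library labelled scramble siRNA, a ratio of 1.00 (0.944 to 1.07). Ythdf2, which brings marked transcripts to the CCR4-NOT deadenylase (chromosome 4, 132184912 to 132212303, minus strand), was at 17.5 FPKM (16.8 to 18.3) and 16.4 FPKM (15.7 to 17.1). Its ratio was 1.07 (1.004 to 1.13), an interval that only just leaves out 1 and contains it once the median ratio of all genes is set to 1. Ythdf3, which acts with both (chromosome 3, 16183212 to 16217037, plus strand), was at 11.1 FPKM (10.6 to 11.7) and 11.2 FPKM (10.6 to 11.7), a ratio of 0.996 (0.930 to 1.07).

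The proportions of the YTHDF genes were thus nearly the same in both libraries. Ythdf1 took 44.7% of their summed level in the library labelled Mettl8 siRNA and 45.6% in that labelled scramble siRNA. Ythdf2 took 33.8% and 32.4%, and Ythdf3 took 21.5% and 22.0%. Ythdf1 exceeded Ythdf3 2.08-fold (1.95 to 2.22) and 2.07-fold (1.94 to 2.20).

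The nuclear reader was less abundant on this scale. Ythdc1, which in the nucleus guides splicing and export of marked transcripts (chromosome 5, 86804221 to 86836659, plus strand), was at 3.12 FPKM (2.95 to 3.30) in the library labelled Mettl8 siRNA and at 3.02 FPKM (2.85 to 3.20) in the library labelled scramble siRNA. The ratio was 1.03 (0.953 to 1.12). Its deposited length of 13651 bases is the longest of the 10.

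By deposited gene length the eraser gene Alkbh5, which encodes an iron-dependent demethylase of m6A, was the second most abundant member in both libraries. It ranked 4 by the length of the principal coding transcript and 3 by that of the longest transcript. Alkbh5 was slightly lower in the library labelled Mettl8 siRNA. Its level there was 19.2 FPKM (18.5 to 19.9, 3194 reads), against 20.7 FPKM (20.02 to 21.4, 3527 reads) in the library labelled scramble siRNA (chromosome 11, 60536381 to 60558512, plus strand). The ratio of 0.927 had an interval of 0.883 to 0.972. It was the only member whose interval lay below 1. The interval contained 1 with equal FPKM sums over all genes. It stayed below 1 with equal sums over protein-coding genes or with the median ratio of all genes set to 1.

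None of the 10 members passed a 1.2-fold difference. On the log2(FPKM + 1) scale, which understates the change of low genes, they ran from -0.10 for Alkbh5 to 0.15 for Wtap, with a median of 0.020 and 6 higher and 4 lower. Over all 13243 genes with a mean of at least 1 FPKM the median was 0.013, with 7166 higher (54.1%) and 5959 lower. With equal FPKM sums in both libraries, 8 members were higher and 2 lower, and 75.5% of all genes were higher. Past 1.2-fold, a size rule, were 0 of the 10 members in either direction, against 4.48% of all genes higher and 5.01% lower (9.49% together), and 1.02% and 1.56% (2.58% together) of the 10095 protein-coding genes. At 1.5-fold the shares of all genes were 1.06% higher and 1.05% lower (2.11% together), and at 2-fold 0.355% and 0.287% (0.642% together), again with 0 members. Shares this low make 0 of 10 an unremarkable count. The median size of a difference was 0.090 for the members and 0.070 for protein-coding genes. The counting interval of the ratio lay above 1 for 3 members (Wtap, Rbm15 and Ythdf2) and for 11.6% of all genes, and below 1 for 1 member (Alkbh5) and for 7.85% of all genes (19.4% in either direction). Deeply sequenced genes leave out 1 more readily, and every member had at least 228 reads in each library.

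**Figure D2:**
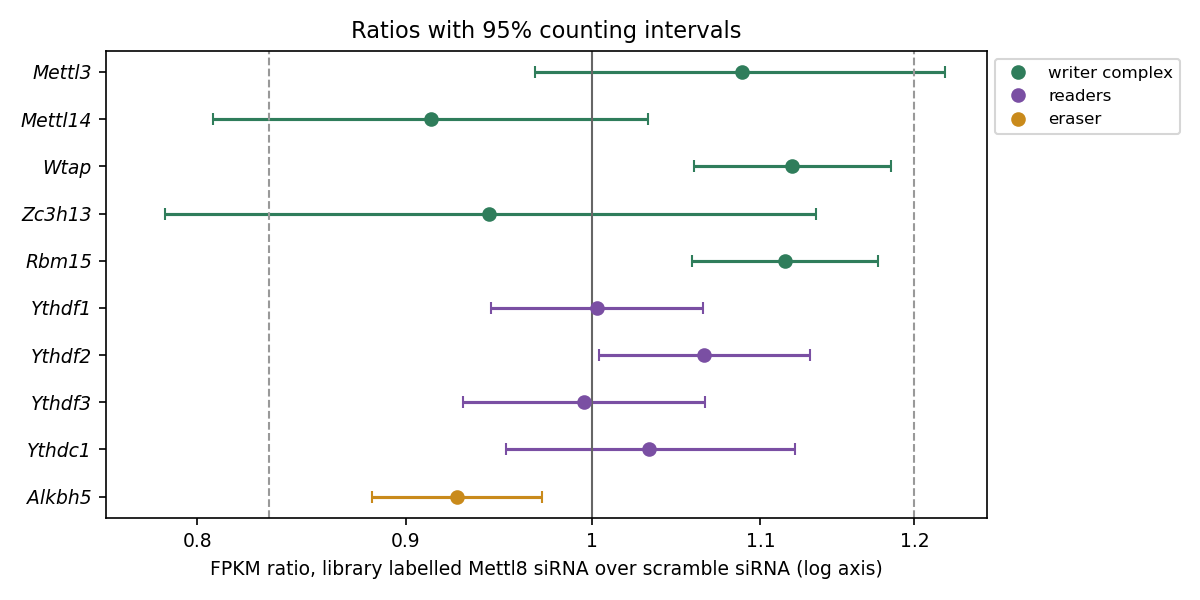
Ratio of FPKM, library labelled Mettl8 siRNA over library labelled scramble siRNA (log axis), with exact 95% counting intervals. Colours mark the writer complex (green), readers (purple) and eraser (orange), the solid line marks 1 and the dashed lines 1.2-fold in either direction. All 10 points lie between 0.913 for Mettl14 and 1.12 for Wtap, inside the dashed lines.

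Levels of different genes depend on the length they are divided by. The deposited length matched the union of all annotated exons in GENCODE M21 for 7 of the 10 genes, and such a union counts retained introns and rare ends as part of the gene. It was 4.61 times the principal coding transcript for Ythdc1 (13651 against 2960 bases), 2.74 times for Wtap, 2.71 times for Mettl14 and 2.59 times for Mettl3, 1.71 times for Rbm15, but 1.11 times or less for the YTHDF genes, Alkbh5 and Zc3h13. If all reads came from the principal transcript, Ythdc1 would stand at 14.4 FPKM in the library labelled Mettl8 siRNA and 13.9 FPKM in that labelled scramble siRNA, above Ythdf3 (11.7 FPKM in both). By its longest transcript, of 6313 bases, Ythdc1 would be at 6.75 and 6.53 FPKM, below Ythdf3. By principal transcript Wtap would be highest of all, at 46.1 and 41.1 FPKM. Mettl3 would be at 10.8 and 9.96 FPKM, Mettl14 at 6.52 and 7.14 FPKM, and Zc3h13 would remain lowest at 1.33 and 1.41 FPKM.

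Ratios between genes moved with it. Wtap exceeded Mettl3 4.02-fold (3.68 to 4.40) in the library labelled Mettl8 siRNA and 3.90-fold (3.56 to 4.28) in that labelled scramble siRNA by deposited length, 4.25-fold and 4.13-fold by principal transcript, and 2.93-fold and 2.85-fold by longest transcript. Rbm15 exceeded Mettl3 3.42-fold and 3.34-fold by deposited length, 2.26-fold and 2.20-fold by principal transcript, and 1.75-fold and 1.71-fold by longest transcript. Alkbh5 exceeded Mettl3 4.59-fold and 5.39-fold by deposited length, but 1.85-fold and 2.17-fold by principal and 1.97-fold and 2.32-fold by longest transcript. Mettl3 exceeded Zc3h13 3.14-fold and 2.72-fold by deposited length, but 8.13-fold and 7.06-fold by principal and 7.62-fold and 6.62-fold by longest transcript. Ythdf1 exceeded Ythdc1 7.42-fold and 7.65-fold by deposited length, but 1.68-fold and 1.73-fold by principal and 3.57-fold and 3.68-fold by longest transcript. Which transcripts the cells made was not measured, and the ratio of a gene between the libraries does not depend on this choice.

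**Figure D3:**
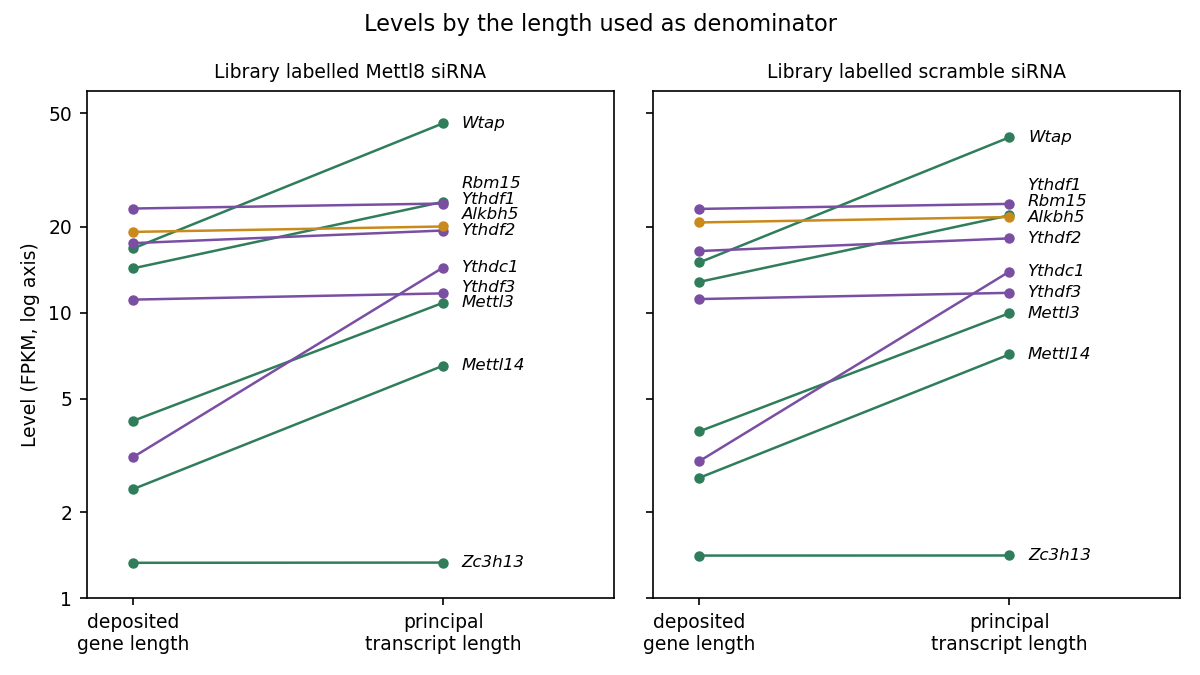
Level of each gene in FPKM (log axis) by the deposited gene length and by the length of the principal coding transcript, in the library labelled Mettl8 siRNA (left) and the library labelled scramble siRNA (right). Green marks the writer complex, purple the readers and orange the eraser; gene names are spread apart where needed. Ythdc1 moves from 3.12 to 14.4 FPKM in the left panel, while Zc3h13 stays at 1.33 FPKM.

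The remaining genes of the m6A pathway were described by lists drawn up with earlier results of these data known. Every gene of these lists had a mean of at least 1 FPKM, and with the pseudocount of 1 FPKM 0 of them passed 1.2-fold. The splits below shift with the scaling: equal FPKM sums over all genes gave more genes on the higher side in all but 2 of the lists with more than 1 gene. Of the other writer subunits, Virma, the scaffold of the regulatory part, was at 8.78 FPKM in the library labelled Mettl8 siRNA and 8.23 FPKM in that labelled scramble siRNA. Rbm15b, the paralogue of Rbm15, was at 5.36 and 5.55 FPKM. Cbll1, the gene of the E3 ligase HAKAI, was at 2.11 and 2.56 FPKM, an FPKM ratio of 0.824 (0.690 to 0.981), which is past 1.2-fold without the pseudocount. Fto, the other demethylase gene, was at 1.98 and 1.95 FPKM (ratio 1.02, 0.915 to 1.13), so Alkbh5 was the more abundant eraser transcript in both.

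The list of other RNA adenosine methyltransferases, which includes the cofactor Trmt112 and the cap enzyme gene Pcif1, split 5 higher to 1 lower around a median of 0.075. The split was 4 to 2 with equal sums over protein-coding genes or a median ratio of 1, and 6 to 0 with equal sums over all genes. The largest was that of Mettl4 (11.4 and 9.94 FPKM, ratio 1.15, 1.03 to 1.28), known as a methyltransferase of U2 small nuclear RNA. Mettl16, which modifies U6 small nuclear RNA and the Mat2a transcript, was at 4.63 and 4.22 FPKM (ratio 1.10, 1.03 to 1.17). Zcchc4, for 28S ribosomal RNA, was at 2.29 and 2.11 FPKM, and Mettl5, for 18S ribosomal RNA, at 12.8 and 12.1 FPKM. Mat2a itself, which encodes the enzyme subunit that makes the methyl donor S-adenosylmethionine, was at 91.7 and 83.0 FPKM (ratio 1.11, 1.08 to 1.13). The 7 genes of donor supply and removal split 5 higher to 2 lower around a median of 0.086 (7 to 0 with equal sums over all genes). Ahcy, which removes the by-product of methylation, was at 20.8 and 19.4 FPKM, its relative Ahcyl1 at 12.01 and 11.3 FPKM, and the methionine synthase gene Mtr at 4.09 and 3.79 FPKM.

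The 10 other readers split 7 higher to 3 lower around a median of 0.087 (9 to 1 with equal sums over all genes). Hnrnpc (115 and 106 FPKM) and Hnrnpa2b1 (71.9 and 65.2 FPKM), nuclear proteins that respond to m6A, had ratios of 1.09 (1.06 to 1.12) and 1.10 (1.08 to 1.13). Igf2bp1, whose product stabilises marked transcripts, was at 51.3 and 48.7 FPKM, and its relative Igf2bp2 at 2.12 and 1.86 FPKM. Prrc2a was lower, at 20.5 and 22.4 FPKM (ratio 0.914, 0.878 to 0.953).

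The splicing and export partners of YTHDC1 all lay on one side. All 10 were higher, under each of the 3 other scalings as well, with differences from 0.034 to 0.17 and a median of 0.10, and 7 of the 10 intervals lay above 1, against 11.6% of all genes. Each of them had at least 518 reads in each library, and deeply sequenced genes leave out 1 more readily. Of the 10 other readers 5 intervals lay above 1 and 1 below, and of the 7 donor genes 3 and 0. Of the 3 other writer subunits 0 lay above 1 and 1 below. Srsf7 was at 59.5 and 52.6 FPKM, Alyref at 29.9 and 26.6, Srsf3 at 53.1 and 47.9 and Srsf10 at 20.7 and 18.7 FPKM, with ratios of 1.13, 1.12, 1.11 and 1.11. Ythdc1 itself had a ratio of 1.03.

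The decay partners of YTHDF2 were mixed. Among 18 genes the split was 11 higher to 7 lower around a median of 0.059 (14 to 4 with equal sums over all genes). Of their intervals 4 lay above 1 and 4 below, against 11.6% and 7.85% of all genes. Cnot9 was at 31.2 and 27.9 FPKM (ratio 1.12, 1.06 to 1.18), and Rida, the bridge to RNase P and MRP, was at 5.21 and 4.38 FPKM (1.19, 1.04 to 1.36). Btg3, at 1.47 and 1.2 FPKM, had a ratio of 1.23 (0.829 to 1.84) on 59 and 49 reads, also past 1.2-fold without the pseudocount. On the lower side were Cnot3 at 5.42 and 6.22 FPKM (0.871, 0.803 to 0.946) and Btg1 at 3.32 and 3.87 FPKM (0.858, 0.759 to 0.969). The 13 subunits of the initiation factor eIF3 had a median of 0.039, with 11 higher (8 once the median ratio of all genes is set to 1). Of their intervals 3 lay above 1 and 2 below, against the same shares of all genes. Eif3e was at 117 and 105 FPKM and Eif3c at 76.1 and 70.3 FPKM, while Eif3a was at 31.8 and 35.3 FPKM and Eif3f at 25.1 and 28.7 FPKM. The 7 ALKBH relatives of Alkbh5 split 3 higher to 4 lower around a median of -0.0053, but 6 to 1 around 0.077 with equal sums over all genes. Of their intervals 2 lay above 1, those of Alkbh1 and Alkbh8, and 0 below, against 11.6% and 7.85% of all genes. Alkbh1 was at 9.19 and 8.25 FPKM, Alkbh8 at 4.09 and 3.66 FPKM, Alkbh3 at 3.53 and 3.15 FPKM and Alkbh6 at 2.75 and 2.99 FPKM.

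Stem cell and chromatin transcripts known to carry m6A showed no common direction. The 8 genes split 4 higher to 4 lower around a median of 0.055 (6 to 2 with equal sums over all genes). Of their intervals 4 lay above 1 and 2 below, against 11.6% and 7.85% of all genes. Klf4 (17.5 and 20.1 FPKM, ratio 0.868, 0.810 to 0.931) and Sox2 (85.8 and 94.8 FPKM, 0.905, 0.871 to 0.940) were lower. Myc (5.74 and 4.91 FPKM, 1.17, 1.02 to 1.34), Eed (25.7 and 22.9 FPKM, 1.13, 1.07 to 1.19), Lin28a (40.1 and 36.1 FPKM) and Med1 (8.24 and 7.51 FPKM) were higher. Nanog (173 and 175 FPKM) and Jarid2 (45.3 and 45.6 FPKM), counted as lower in the split, had intervals that contain 1. Pou5f1, a transcript known to lack the mark, was at 164 and 155 FPKM (1.05, 1.02 to 1.08).

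**Figure D4:**
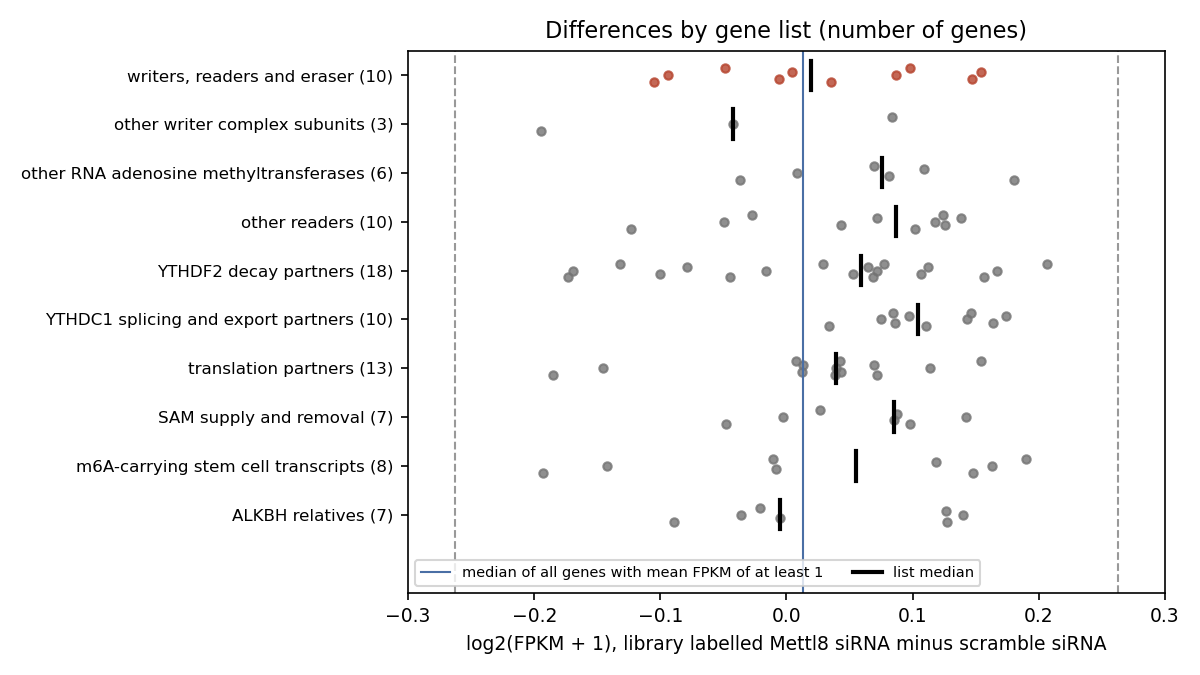
Difference in log2(FPKM + 1), library labelled Mettl8 siRNA minus library labelled scramble siRNA, for the 10 writers, readers and eraser (red) and for each list with more than 1 gene (grey). Black bars are list medians, the blue line is the median of all genes at 0.013, and the dashed lines mark 1.2-fold on this scale. Every point lies inside the dashed lines, and the splicing and export partners all lie above 0.

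The genes nearest to the median profile of the members over the 2 libraries on the log2(FPKM + 1) scale were Fibp (12.7 and 11.9 FPKM), Ppie (12.7 and 11.96 FPKM) and Gm45208 (12.5 and 12.1 FPKM), at distances of 0.012, 0.014 and 0.018. With 2 libraries this likeness describes a shared level and little else.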

How the data were processed

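The authors deposited FPKM values, rounded to 2 decimals, with a gene length for each of 50508 genes and 1 column per library. STAR 2.4.0i, featureCounts 1.5.0-p1 and the mm10 build were used, per the submitters' processing notes; no source used here gives the annotation, the strand setting, the read length or how multiply mapped reads were treated. Reads per gene were rebuilt from FPKM and length, with denominators of 27818485 (library labelled Mettl8 siRNA) and 28462442 reads (scramble siRNA). All of 3566 and 3123 values of genes under 400 bases and up to 30 reads were whole within rounding plus 0.005 reads. The steps were tested on simulated Poisson counts, with changes of at least 2-fold planted in genes with a mean of at least 5 FPKM. Smaller changes, such as 1.2-fold, were not simulated. Intervals are exact at 95% (Poisson, Clopper-Pearson or conditional). Differences are log2(FPKM + 1), Mettl8 siRNA minus scramble siRNA, for genes with a mean of at least 1 FPKM. Positions, gene types and transcripts came from GENCODE M21 on GRCm38, the assembly of mm10, which matched 95.1% of symbols (Virma through its RefSeq synonym 1110037F02Rik). The members, lists, pairs and rules were chosen with earlier results of these data known. Named were all members, Mettl8, the up to 4 largest differences of each list with a few other list genes and the 3 genes nearest the members' median profile. No replicated test was possible. Python 3.11.15, pandas 2.3.3 and scipy 1.17.1 were used.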

Additional observations from a re-analysis of the deposited data

How the results depend on the processing

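The number of members past 1.2-fold was 0 in each direction under every setting tried: a pseudocount of 0.1 FPKM (14.8% of all genes past it in either direction), equal sums over all genes (11.9%) or protein-coding genes (9.51%), a median ratio of 1 (9.57%), no filter (7.03%), a mean of at least 5 FPKM (6.03%, 6 members left), 1.5-fold (2.11% of all genes) and 2-fold (0.642%). Rescaling to the same FPKM sum, in which the gene Gm23935 alone held 32.1% and 33.3%, moved the members' median to 0.10 and that of all genes to 0.089. This rescaling turned Zc3h13 and Ythdf3 positive. It left 6 members with an interval above 1 and 0 below, against 30.3% and 2.20% of all genes. The 6 were Mettl3, Wtap, Rbm15, Ythdf1, Ythdf2 and Ythdc1. Equal sums over protein-coding genes or a median ratio of 1 left 2 above (Wtap and Rbm15) and 1 below (Alkbh5), against 9.83% and 9.20% of all genes under equal sums and 9.21% and 9.66% under the median ratio, turned Ythdf1 negative, and kept the members' median between 0.0057 and 0.0097. Gene length, by longest or principal transcript, moved ratios between members as described; the principal transcript was chosen after seeing the data. By longest transcript Mettl14 was at 0.244 and 0.291 of Mettl3. No paired analysis was possible because each group has 1 library, and none could be left out.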
